A study of Mus musculus with 2 samples.

Results

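The 7 genes described here, Hmgcs1, Idi1, Fdps, Fdft1, Sqle, Lss and Dhcr7, encode enzymes of cholesterol synthesis that are targets of the SREBP2 transcription factor. They were chosen by symbol, and all 7 were found among 35602 gene symbols. The material was mouse breast tumour tissue, and 2 treatments were compared: a PD-1 inhibitor injected intraperitoneally together with acupuncture, and the same injection alone. PD-1 is a receptor that restrains activated T cells, and both groups received its inhibitor, so no untreated tumour entered the comparison. Each group had 1 library, with 60752043 counts with acupuncture and 105728292 without it. The labels name no strain, age, tumour line or acupuncture schedule, nor how many animals stand behind a library. The study asked what acupuncture adds to a PD-1 inhibitor, read here through the tumour transcriptome. With 1 library a group no test between treatments was possible, the differences have no replicate check, and every interval below covers counting error only.

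Cholesterol is built from acetyl-CoA by way of mevalonate, short isoprenoid units, squalene and lanosterol. When sterols in the endoplasmic reticulum are scarce, SREBP2 is carried to the Golgi by its escort SCAP, is cut free by proteases and switches on nearly all enzymes of the route. When sterols are plentiful, INSIG proteins hold SCAP and SREBP2 back. Dividing tumour cells and activated T cells draw on this route for new membrane, and its isoprenoid side branches supply the lipid anchors of small GTPases.

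The RefSeq promoter table of build GRCm38.p6 held 4 of the 7 genes, and their sequence is shown because these genes are grouped here by a shared regulator that acts at the promoter. The files were counted on another build, so the positions belong to the RefSeq table only. Each line gives the 160 bases before an annotated start on the plus strand, with matches on either strand to TCACNCCAC, a form of the SREBP-binding sterol element, or to CCAAT, the box of its partner NF-Y, in capitals.
Hmgcs1, chr13:119690191-119690350: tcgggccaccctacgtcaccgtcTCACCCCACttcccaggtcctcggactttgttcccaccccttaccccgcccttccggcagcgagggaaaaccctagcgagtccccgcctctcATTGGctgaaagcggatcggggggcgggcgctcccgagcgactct
Idi1, chr13:8885446-8885605: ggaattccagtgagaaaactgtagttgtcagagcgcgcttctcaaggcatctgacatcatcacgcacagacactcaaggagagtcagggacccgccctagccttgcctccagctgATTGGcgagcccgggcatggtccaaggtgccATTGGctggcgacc
Lss, chr10:76531445-76531604: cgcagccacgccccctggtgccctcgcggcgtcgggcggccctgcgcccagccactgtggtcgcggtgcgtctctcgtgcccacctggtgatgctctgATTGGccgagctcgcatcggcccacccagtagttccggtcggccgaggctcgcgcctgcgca
Dhcr7, chr7:143830054-143830213: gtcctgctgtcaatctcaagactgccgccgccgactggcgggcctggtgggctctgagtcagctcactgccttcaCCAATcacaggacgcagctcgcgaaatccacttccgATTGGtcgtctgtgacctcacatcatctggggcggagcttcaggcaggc
Motifs were counted in windows from 250 bases before a start to 50 bases after it, longer than the stretch printed. Hmgcs1 held the sterol element form once, and 1.24% of all 32851 promoter windows in the table held it. CCAAT stood in 4 of the 6 windows of these genes, against 37.4% of all windows, and no match of one motif overlapped a match of the other. Dhcr7 had 3 annotated starts, and the one printed was chosen because the other 2 held no CCAAT. Where a motif is not found in such a window, these letters are absent there and nothing follows about the factor.

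None of the 7 genes differed 1.5-fold between the tumours. Their ratios, acupuncture over PD-1 inhibitor alone, lay between 0.757 for Fdft1 and 1.12 for Idi1, with a median log2 ratio of -0.15. Fdft1, Fdps, Dhcr7, Sqle and Hmgcs1 were lower with acupuncture, with intervals below 1, Idi1 was higher, and the interval of Lss held 1. These directions depend on the scaling. With total counts 4 were below 1 and Hmgcs1 turned to a log2 ratio of 0.04, and with the epithelial markers set to a median of 0 all 7 were above 1. Over the 18687 genes whose counts in both libraries summed to 20 or more, 10.3% were at least 1.5-fold lower and 14.3% at least 1.5-fold higher, and 4.9% and 9.21% passed 2-fold, each with an interval that excluded 1. Over the 11323 genes that summed to 1000 or more, a range that holds all 7, the shares past 1.5-fold were 7.14% lower and 6.56% higher. With such shares a count of 0 among 7 genes is near the background and does not set them apart. The epithelial markers had lower levels with acupuncture, and the adipocyte, muscle and lymphocyte markers higher ones, with values given further on. The part of these markers in the ratios of the 7 genes was not tested.

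Levels are CPM, counts per 1000000 of library sizes scaled by TMM, a method that aligns the bulk of genes between libraries. Hmgcs1, the cytosolic synthase that joins acetoacetyl-CoA and acetyl-CoA into HMG-CoA, stood at 111.8 CPM with acupuncture (7033 counts) and 116.9 CPM without it (11938 counts). Its ratio was 0.956 (95% counting interval 0.928 to 0.985). The gap was the smallest of the 5 genes with intervals below 1, and its side of 1 is the one that turned under total counts.

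Idi1, which isomerises isopentenyl diphosphate into the reactive partner needed for chain growth, was at 57.8 CPM with acupuncture (3637 counts) and at 51.8 CPM without it (5286 counts). Its ratio of 1.12 (1.07 to 1.16) was the highest of the 7. The related gene Idi2 had 0 counts in both libraries.

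Fdps, which makes farnesyl diphosphate, the branch point between sterols, dolichol, ubiquinone and protein prenylation, was at 82.5 CPM with acupuncture (5189 counts) and at 101.5 CPM without it (10361 counts). The ratio was 0.813 (0.786 to 0.840). Fdft1, squalene synthase, which commits farnesyl diphosphate to sterols, was at 79.2 CPM with acupuncture (4983 counts) and 104.7 CPM without it (10684 counts). Its ratio of 0.757 (0.732 to 0.783) was the lowest of the 7, with that of Fdps next to it.

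Sqle, the epoxidase that oxidises squalene and is a rate-limiting step, was at 77.1 CPM with acupuncture (4853 counts) and 85.5 CPM without it (8727 counts), a ratio of 0.902 (0.871 to 0.935). Lss, which folds the epoxide into lanosterol, was at 30.9 CPM with acupuncture (1947 counts) and 29.4 CPM without it (2998 counts). The ratio of Lss was 1.05 (0.995 to 1.12), an interval that holds 1 under TMM. With total counts its log2 ratio was 0.18, against 0.08 under TMM, so where the interval lies depends on the scaling. Dhcr7, the reductase that turns 7-dehydrocholesterol into cholesterol, was at 25.7 CPM with acupuncture (1618 counts) and 31.4 CPM without it (3202 counts). Its ratio was 0.820 (0.772 to 0.871), close to that of Fdps.

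**Figure D1:**
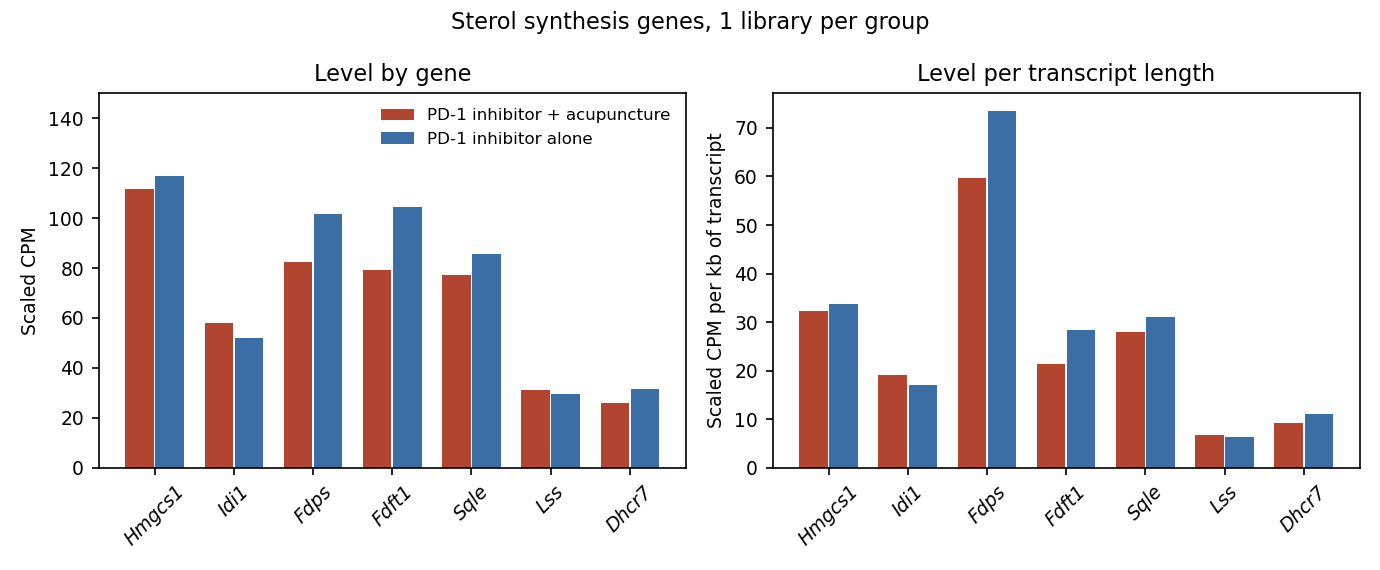
Scaled CPM of the 7 genes (left) and scaled CPM per kilobase of transcript (right) with acupuncture (red) and with the PD-1 inhibitor alone (blue), 1 library per group and therefore no error bars. Idi1 and Lss have the taller red bar, the other 5 genes the taller blue bar, and Fdps is the highest gene per length.

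Divided by the length of the GENCODE vM21 transcript taken for each gene, the levels ran in the same order in both tumours. Fdps was highest, at 59.7 CPM per kilobase with acupuncture and 73.4 without it, followed by Hmgcs1 at 32.3 and 33.8, Sqle at 27.97 and 31.0, Fdft1 at 21.4 and 28.3, and Idi1 at 19.1 and 17.1. Dhcr7 at 9.14 and 11.1 and Lss at 6.63 and 6.29 were the lowest. Lss, the enzyme that takes up the product of Sqle, was thus the lowest of the 7 in both tumours. The levels rest on 1 transcript length per gene, and with 1 library a group their spread between tumours is unknown.

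Ratios between these genes do not depend on the scaling. Across the 21 pairs, 19 had a ratio of ratios whose 95% interval excluded 1 and 2 did not, Idi1 with Lss (1.06, 0.986 to 1.14) and Dhcr7 with Fdps (1.01, 0.942 to 1.08). The widest pair was Idi1 with Fdft1, at 1.48 (1.40 to 1.56). In shares of the summed counts of the 7 genes, Idi1 took 12.4% with acupuncture and 9.94% without it, and Fdft1 took 17.0% with acupuncture and 20.1% without it. Sqle took a like share, 16.6% with acupuncture and 16.4% without it, with overlapping exact binomial intervals (16.2 to 17.0 and 16.1 to 16.7). The 7 genes summed to 465.0 CPM with acupuncture and 521.1 CPM without it, a ratio of 0.892 (0.880 to 0.905).

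Of 13 other enzymes of the route, 1 was at least 1.5-fold lower, none at least 1.5-fold higher and none past 2-fold. Over all genes tested, 10.3% were at least 1.5-fold lower and 14.3% higher, and 4.9% and 9.21% passed 2-fold. Over genes whose counts summed to 1000 or more, as those of all 13 did, 7.14% were at least 1.5-fold lower and 6.56% higher. The counts of the 13 are near these shares. Their median log2 ratio was -0.06, beside 0.0003 for all genes tested. It was above 0 with total counts (0.04) and with the epithelial markers set to 0 (0.43). Early steps were uneven. Acat2, the thiolase that makes acetoacetyl-CoA, had a ratio of 1.03 (0.987 to 1.07) and the phosphomevalonate kinase Pmvk one of 0.958 (0.905 to 1.01), both with intervals that hold 1. Mevalonate kinase, Mvk, was at 15.0 CPM with acupuncture and 20.2 CPM without it, a ratio of 0.744 (0.689 to 0.804). The decarboxylase Mvd, which makes isopentenyl diphosphate, was at 14.2 CPM with acupuncture and 20.9 CPM without it, a ratio of 0.679 (0.627 to 0.735). The ratios of Mvd and Mvk were thus lower in value than that of Fdft1. Their separate intervals overlapped its interval, which does not decide whether the ratios differ. No ratio of ratios was computed for these pairs. Idi1, the step after Mvd, lay above 1.

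After lanosterol the enzymes spread to both sides. Cyp51, the lanosterol demethylase, had a ratio of 0.908 (0.877 to 0.939), Msmo1, which starts removal of the C4 methyl groups, 1.03 (0.991 to 1.07), Nsdhl, a dehydrogenase of the same demethylation, 0.880 (0.823 to 0.941), and its partner reductase Hsd17b7 1.18 (1.08 to 1.28). Erg28, whose yeast counterpart tethers that complex, had a ratio of 1.09 (1.04 to 1.15), the isomerase Ebp 0.830 (0.794 to 0.868) and the desaturase Sc5d 0.969 (0.926 to 1.01).

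The enzymes that share the C14 sterol reductase step stood on opposite sides of 1. Tm7sf2 was at 5.21 CPM with acupuncture (328 counts) and 8.42 CPM without it (860 counts), 1.62-fold lower (1.42 to 1.84), and was the 1 enzyme past 1.5-fold. Lbr, which is also a receptor for lamin B in the nuclear envelope, was at 149.2 CPM with acupuncture and 126.1 CPM without it, a ratio of 1.18 (1.15 to 1.22). The ratio of ratios, Lbr over Tm7sf2, was 1.91 (1.68 to 2.18), a pair chosen after its values were seen. Per kilobase Lbr stood at 42.5 CPM with acupuncture and 35.9 without it, and Tm7sf2 at 3.54 and 5.73. Over all 20 enzymes 13 had a ratio below 1, which became 10 with total counts and 2 with the epithelial markers set to 0.

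**Figure D2:**
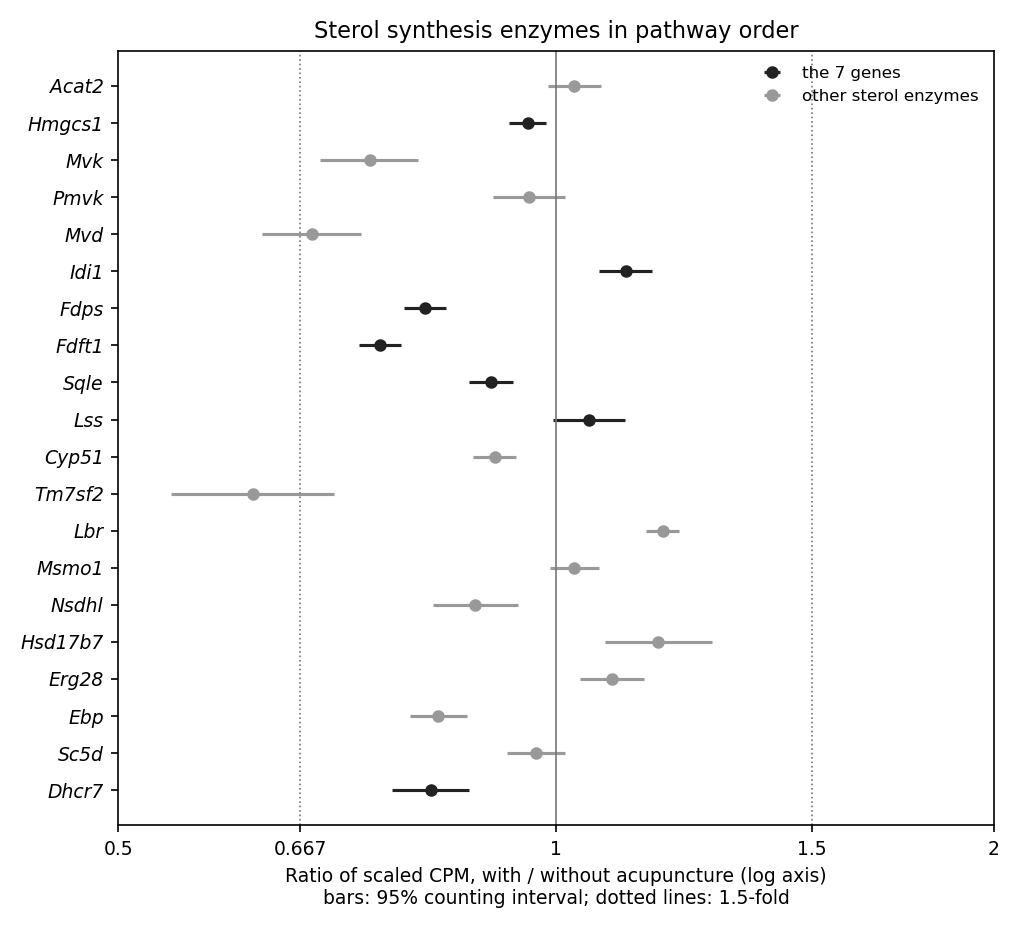
Ratio of scaled CPM, acupuncture over PD-1 inhibitor alone (log axis), for 20 sterol enzymes from the first step (top) to the last (bottom), an approximate order after lanosterol. Points are ratios of 1 library per group and bars are 95% counting intervals. The 7 genes (black) lie between 0.757 and 1.12, and Tm7sf2 is the 1 enzyme below the lower dotted line of 1.5-fold.

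Of 9 genes that control SREBP2 or respond to it, none was past 1.5-fold, which is near the background. Of all genes tested, 75.3% lay within 1.5-fold. The share was 86.3% over genes whose counts summed to 1000 or more, as those of all 9 did. Their median log2 ratio was 0.002, or 0.49 with the epithelial markers set to 0. Srebf2, which encodes SREBP2, was at 122.2 CPM with acupuncture and 146.0 CPM without it, a ratio of 0.837 (0.814 to 0.860). Mbtps1, the protease that makes the first cut in SREBP, was at 192.8 CPM with acupuncture and 188.8 CPM without it, a ratio of 1.02 whose interval holds 1 (0.998 to 1.04). Insig1, itself an SREBP target, had a ratio of 1.06 (1.01 to 1.10) and its relative Insig2 one of 0.814 (0.779 to 0.849). Total counts raise every log2 ratio by 0.10.

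Enzymes of the isoprenoid branches spread around 1 as well, with 1 of 10 past 1.5-fold on the higher side and 0 on the lower side, beside 14.3% and 10.3% of all genes tested. Their median log2 ratio was 0.002, or 0.10 with total counts and 0.49 with the epithelial markers set to 0, where 1 of the 10 was at least 2-fold higher. Pdss1, a subunit of the enzyme that makes the ubiquinone side chain, was at 24.5 CPM with acupuncture and 15.3 CPM without it, 1.60-fold higher (1.49 to 1.72). Nus1, a subunit of the dolichol-making transferase, had a ratio of 1.002 (0.974 to 1.03), Fnta, the shared subunit of the farnesyl and geranylgeranyl transferases, 0.875 (0.843 to 0.908), and Rabggta, which prenylates Rab proteins, 0.755 (0.709 to 0.803).

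Genes of sterol uptake, of storage, and of the sterol sensor LXR with its targets had 3 members past 1.5-fold, 1 in each list. All 3 were higher with acupuncture, a count near the 14.3% of all genes tested that were. None of the genes in these lists was at least 1.5-fold lower, beside 10.3% of all genes tested. Over genes whose counts summed to 1000 or more the shares were 6.56% higher and 7.14% lower. Soat2, among others, did not reach that sum. Of 10 uptake and trafficking genes the 1 was Vldlr, the receptor for very low density lipoprotein, at 17.5 CPM with acupuncture and 6.41 CPM without it, 2.74-fold higher (2.48 to 3.02) and the 1 gene past 2-fold. The list's median log2 ratio was -0.08, or 0.02 with total counts and 0.41 with the epithelial markers set to 0, and its most abundant genes were lower, with the lysosomal sterol carrier Npc2 at a ratio of 0.719 (0.710 to 0.728) and the endocytic receptor Lrp1 at 0.784 (0.773 to 0.794). Of 8 genes of esters and oxysterols (median log2 ratio 0.16) the 1 was the esterifying enzyme Soat2, at 4.58 CPM with acupuncture and 2.96 CPM without it, a ratio of 1.55 (1.31 to 1.82). The more abundant Soat1 had a ratio of 0.721 (0.699 to 0.743), and lysosomal acid lipase, Lipa, one of 1.01 (0.969 to 1.06). Of 6 genes of the sterol sensor LXR and its targets (median log2 ratio 0.10) the 1 was Nr1h3, which encodes LXR alpha, at a ratio of 1.73 (1.57 to 1.92). Nr1h2, LXR beta, had a ratio of 0.856 (0.825 to 0.888). The exporter Abca1 had a ratio of 0.902 (0.868 to 0.937) and the exporter Abcg1 one of 1.33 (1.24 to 1.42). Adipocyte, muscle and lymphocyte markers were higher in the same library as Vldlr and Nr1h3, and their part was not tested.

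Fatty acid synthesis is run by the related factor SREBP1. Of 12 genes 5 passed 1.5-fold on the higher side and 0 on the lower side, beside 14.3% and 10.3% of all genes tested, and the median log2 ratio was 0.33. Over genes whose counts summed to 1000 or more, as those of all 12 did, the shares were 6.56% higher and 7.14% lower. The adipocyte markers, whose cells make fatty acids, were 3.54-fold higher in summed level in the same library (3.51 to 3.57). The 5 were Scd1 at a ratio of 4.15 (4.10 to 4.20), Gpam at 1.95 (1.86 to 2.04), Me1 at 1.75 (1.69 to 1.82), Fasn at 1.69 (1.66 to 1.71) and Acaca at 1.64 (1.58 to 1.69). Scd1, the stearoyl-CoA desaturase abundant in fat, was at 1776 CPM with acupuncture and 428.0 CPM without it, whereas its paralog Scd2 was at 451.9 CPM with acupuncture and 605.9 CPM without it, a ratio of 0.746 (0.735 to 0.756). Scd1 and Scd2 are close in sequence, so reads may have been divided between them. With Scd2, the desaturases Fads1 at 0.784 (0.757 to 0.812) and Fads2 at 0.771 (0.738 to 0.806) were the 3 of the 12 with intervals below 1. Ratios of ratios, which do not depend on the scaling, ran for fatty acid synthase from 2.23 for Fasn over Fdft1 (2.15 to 2.31), the lowest of the 7 genes, to 1.51 for Fasn over Idi1 (1.44 to 1.58), the highest. Srebf1, whose product is SREBP1, had a ratio of 1.02 (0.985 to 1.05).

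**Figure D3:**
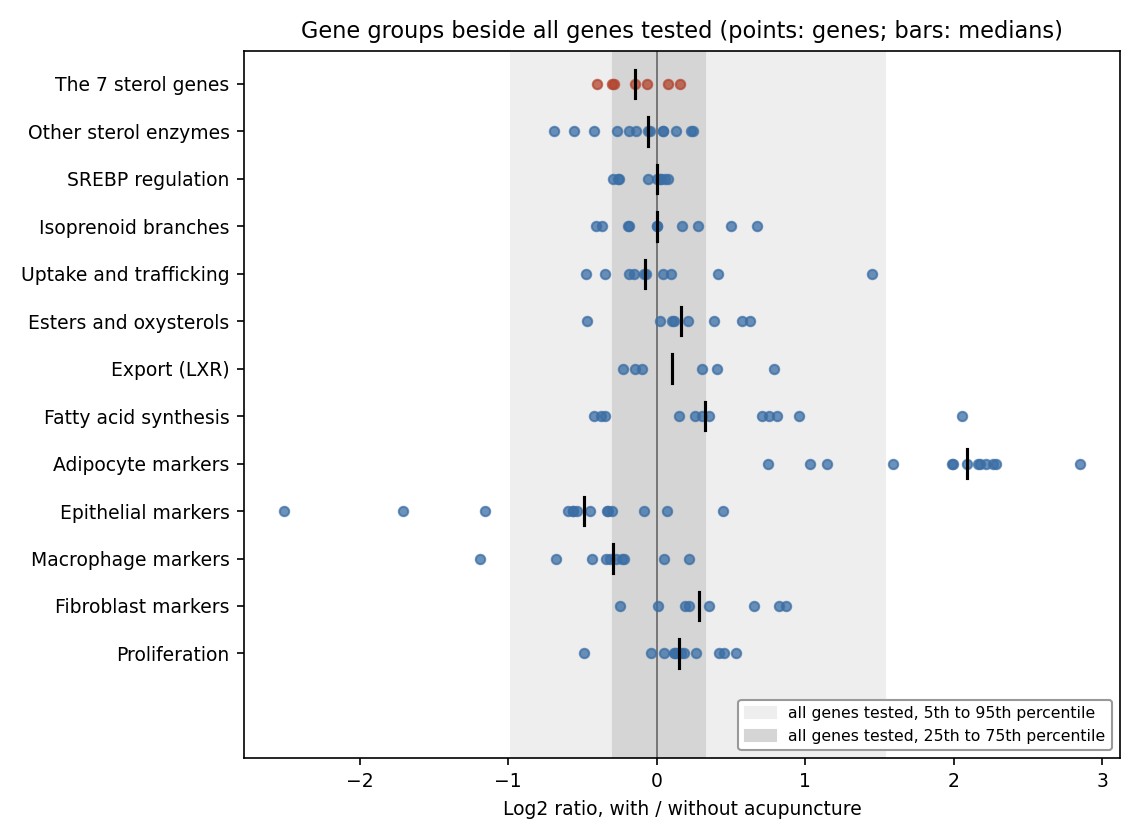
Log2 ratio, acupuncture over PD-1 inhibitor alone, of each gene (points) and the median (bars) in 13 lists, beside the spread of all 18687 genes tested (shaded). The 7 sterol genes lie between -0.40 and 0.16, whereas the adipocyte markers have a median of 2.09 and the epithelial markers one of -0.49. Lists not plotted include the muscle markers, with a median of 2.83, and the lymphocyte markers, with one of 3.21.

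Cell markers differed more than the sterol genes, and in bulk tissue fewer cells of a type and less RNA per cell cannot be told apart. Over all genes tested, 4.9% were at least 2-fold lower and 9.21% at least 2-fold higher. Epithelial markers were present in both tumours. The keratin Krt8 was at 1060 CPM with acupuncture and 1564 CPM without it, and Epcam at 249.8 CPM with acupuncture and 308.0 CPM without it. The keratin Krt5 had the lowest ratio of the list, 0.156 (0.0727 to 0.299), on 10 counts with acupuncture and 104 without it. Of 14 epithelial markers, 3 were at least 2-fold lower, none was at least 2-fold higher, 1 had an interval above 1 (Cldn7, a tight junction claudin, at 1.36, 1.27 to 1.46), and their summed level was 3082 CPM with acupuncture and 4466 CPM without it. Set against that sum the 7 sterol genes were 1.29-fold higher with acupuncture (1.27 to 1.31), opposite in side to their ratio of 0.892 under TMM. Of 13 adipocyte markers 12 were at least 2-fold higher, with a summed level of 2284 CPM with acupuncture and 644.8 CPM without it, and none was at 0. Set against that sum the sterol genes had a ratio of 0.252 (0.248 to 0.256). The part of these markers in the sterol and fatty acid values was not tested.

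Of the other markers, 12 of 12 muscle genes (summed level 2251 CPM with acupuncture and 239.1 CPM without it) and 10 of 10 lymphocyte genes (193.9 and 21.2 CPM) were at least 2-fold higher. Of 10 macrophage markers 1 was at least 2-fold lower, with summed levels of 1448 CPM with acupuncture and 1696 CPM without it and a median log2 ratio of -0.30, or 0.19 with the epithelial markers set to 0. Of 8 fibroblast markers none passed 2-fold, with 10110 and 7510 CPM. Of 8 myelin genes 2 were at least 2-fold higher, beside 9.21% of all genes tested, with 211.1 and 169.0 CPM. Of 8 genes of sebaceous gland and epidermis, 6 reached the count minimum and 3 were at least 2-fold higher. Their summed level was 9.39 CPM with acupuncture and 8.56 CPM without it, and 2 and 3 genes were at 0. These genes had few counts. At a combined count of at least 100 the 3 became 1, and the list's median log2 ratio went from 0.85 to -0.09. Of 12 proliferation genes none passed 1.5-fold, their median log2 ratio was 0.15, and the sterol sum set against theirs had a ratio of 0.789 (0.777 to 0.801).

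**Figure D4:**
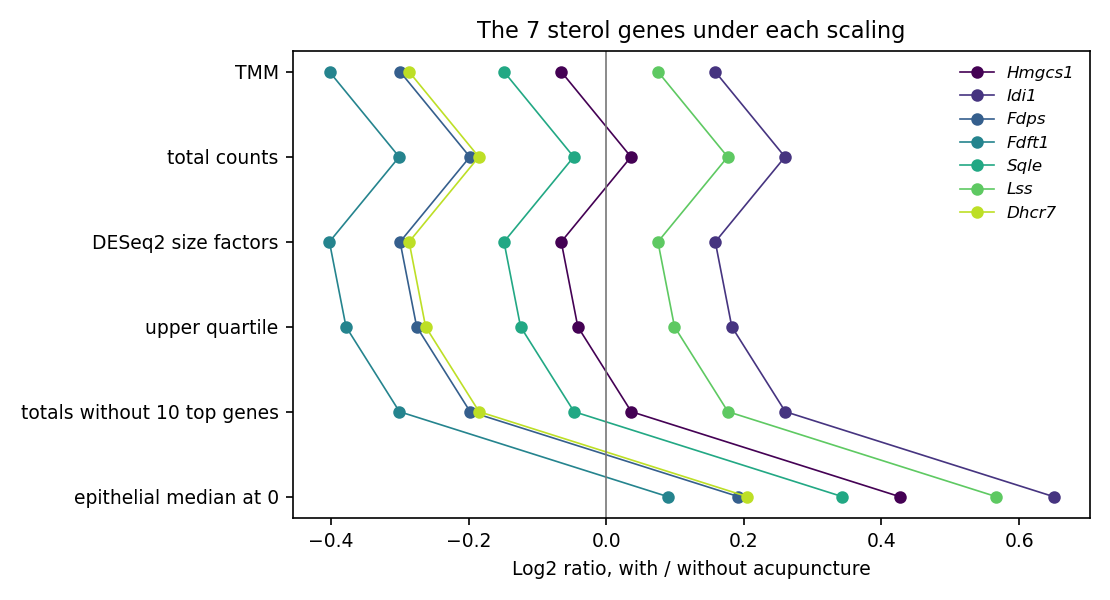
Log2 ratio, acupuncture over PD-1 inhibitor alone, of the 7 genes (lines) under 6 ways of scaling the libraries. The gaps between genes are fixed, and the set shifts as a whole, from -0.40 to 0.16 under TMM to between 0.09 and 0.65 with the epithelial markers set to a median of 0.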

How the data were processed

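Per the labels' protocols, RNA was isolated with a column kit and libraries were made with a SMARTer kit for mRNA. The authors deposited raw counts per gene symbol, 1 column per library. Builds GRCm39 and mm39 come from the submitters' processing notes, and neither labels nor file name the aligner, the counter or its strand setting. Library sizes were multiplied by TMM factors (edgeR 4.0.16, R 4.3.3) of 1.04 with acupuncture and 0.966 without it, computed on genes whose counts summed to 20 or more. Each ratio has an exact Clopper-Pearson 95% interval, made from how a gene's reads divide between the libraries, and log2 ratios a prior count of 2. Ratios of ratios between the 7 genes carry exact conditional intervals, others normal-approximation ones. Genes past a fold limit (2 or 1.5) counted only if the interval excluded 1. Without molecular identifiers reads can be copies of 1 molecule, so intervals cover counting error only. No test was run. Other scalings, count minimums, prior counts, fold limits, ratios without intervals and a thinned deeper library were tried. Intervals and listing were checked on simulated counts. Transcript lengths are those of the longest principal GENCODE vM21 transcript of a symbol, or of its longest transcript where none was marked principal. That annotation is of another build than the counts.

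The 17 lists (170 symbols), which include the 7 genes as 1 list, were chosen with earlier results of these data known. Named genes were the 7, the 13 other enzymes and, where a list bears on them, its 2 most abundant, highest and lowest genes. Fasn, Acaca, Me1, Gpam, Srebf1, Abcg1, Fads1, Fads2, Idi2 and Epcam were named after their values were seen. Other genes of the route are not analysed here. Python 3.11.15, numpy 2.4.6, pandas 2.3.3, scipy 1.17.1, matplotlib 3.10.9 and DESeq2 1.42.0 (an alternative scaling) were used.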

Additional observations from a re-analysis of the deposited data

How the results depend on the processing

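Of 14 alternatives, the epithelial scaling moved the medians furthest, to a log2 ratio of 0.34 for the 7 genes, 0.43 for the 13 other enzymes and 0.82 for fatty acid synthesis, with 390 genes lower and 3314 higher over all genes, against 916 and 1721 under TMM. It shifts every gene, and the median of all genes tested was then 0.49. Idi1, at 0.65, passed 1.5-fold under it. Total counts shifted all genes by 0.10. The gap between the median of the 7 genes and that of all genes was -0.15 under each scaling. None of the 7 passed 2-fold under any alternative. Counts over all genes were 500 lower and 1055 higher at a combined count of at least 100, 199 and 346 at 1000 (added after the data were seen), 1933 and 2679 at 1.5-fold, and 262 and 678 at 4-fold, where fewer genes or another limit set the count. At 1.5-fold, 1 of the 13 other enzymes was lower. With the deeper library thinned, the 7 genes lay between -0.39 and 0.17. No paired analysis was possible because each group has 1 library, and for the same reason no replicate could be left out.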
